A study of Mus musculus with 8 samples.

Results

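Transcripts of complement components and regulators were examined in a hind limb muscle, the tibialis anterior (TA), of mice that had lost Sdhc in skeletal muscle. Sdhc encodes a membrane anchor of succinate dehydrogenase, complex II of the respiratory chain. The set was 9 genes chosen by name: C1qa, C1qb, C1qc, C1ra, C3, C4b, C7, Serping1 and Cd55. Of these, 8 were found among the 23930 targets of the deposited table, and C1ra was not analysed here. The 4 KO mice carried an inducible Cre driven by the human skeletal actin promoter (HSA-Cre), which acts in muscle fibres, together with loxP sites in Sdhc. The 4 WT mice, from the same litters, had this Cre but lacked the loxP sites. Every mouse, KO or WT, received tamoxifen when 12 weeks old, and tissue was collected 3 weeks afterwards. The WT labels give the strain as C57BL/6, whereas each KO label carries another number after the C57BL name, which the sources do not explain. The libraries held 5983175 to 9119006 reads each, from an amplicon panel that reads 1 short stretch per gene. Values are RPM, in which the reads of a target are scaled to a common library total. Because amplicons differ in efficiency, levels were compared between libraries and not between genes.

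Complement is a cascade of secreted proteins that marks cells and debris for uptake and can open pores in membranes. The classical pathway starts when C1q, built from A, B and C chains, binds a surface and activates the proteases C1r and C1s. C1s then cleaves C4 and C2. All pathways meet at C3, and the terminal components C5 to C9 then assemble a membrane pore. Serping1 encodes the C1 inhibitor, which blocks C1r and C1s, and Cd55 encodes decay-accelerating factor, which takes C3 convertases apart on host cells. The liver supplies most plasma complement. In tissues, C1q chains come mainly from macrophages, while C3, C1 inhibitor and C7 are made by fibroblasts among other cells.

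Sdhc itself stood at 16.9, 46.5, 18.7 and 54.3 RPM in KO1 to KO4, against 737, 853, 848 and 748 RPM in WT1 to WT4. Its log2 fold change was -4.68 (limma with BH adjustment, adjusted p = 1.06e-05), so the libraries went with their labels. Genes of the muscle fibre were abundant throughout, with 8 of them, led by Tnnt3 and Acta1, summing to 140460 to 185820 RPM in KO and 129580 to 179640 RPM in WT libraries. Over all tested targets, 3 of 11004 passed the limma threshold of an adjusted p under 0.05, or 0.0273%. These were Sdhc, Gpx3 and Tgfb3, the last 2 outside the rule for named genes and lower in KO. Neither Gpx3 nor Tgfb3 passed under median-ratio, TMM and quantile scaling, without the intensity trend, in edgeR and without KO2, KO3, KO4, WT1, WT2 or WT4, where Sdhc was the 1 target called. Targets entered that fit with a mean of at least 1 RPM, and fold changes below are differences of log2(RPM + 1), KO minus WT. At an unadjusted p under 0.05, 942 targets were lower and 73 higher in KO, a split that was 730 and 383 under median-ratio, 751 and 355 under TMM and 594 and 416 under quantile scaling.

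No complement member passed the adjusted threshold in this fit. C3 and Serping1 had all 4 KO libraries below all 4 WT libraries, with KO means at 53.5% and 53.8% of the WT means. The same was true of 4.56% of all tested targets. C1qb and C7 had lower KO means with overlapping libraries, Cd55 had nearly equal means, and C1qa, C1qc and C4b were too scarce to enter the fit. In limma, 0 of 5 tested members passed after adjustment, and 2 had an unadjusted p under 0.05 and were lower in KO, as 8.56% of all tested targets did. edgeR's quasi-likelihood test also called 0 of 5 (0.00909% of all targets), with 3 at an unadjusted p under 0.05 and lower in KO, against 7.34% of all targets. DESeq2 called 2 of 5, C3 and Serping1, where it called 1.32% of all targets lower and 0.0364% higher in KO.

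**Figure D1:**
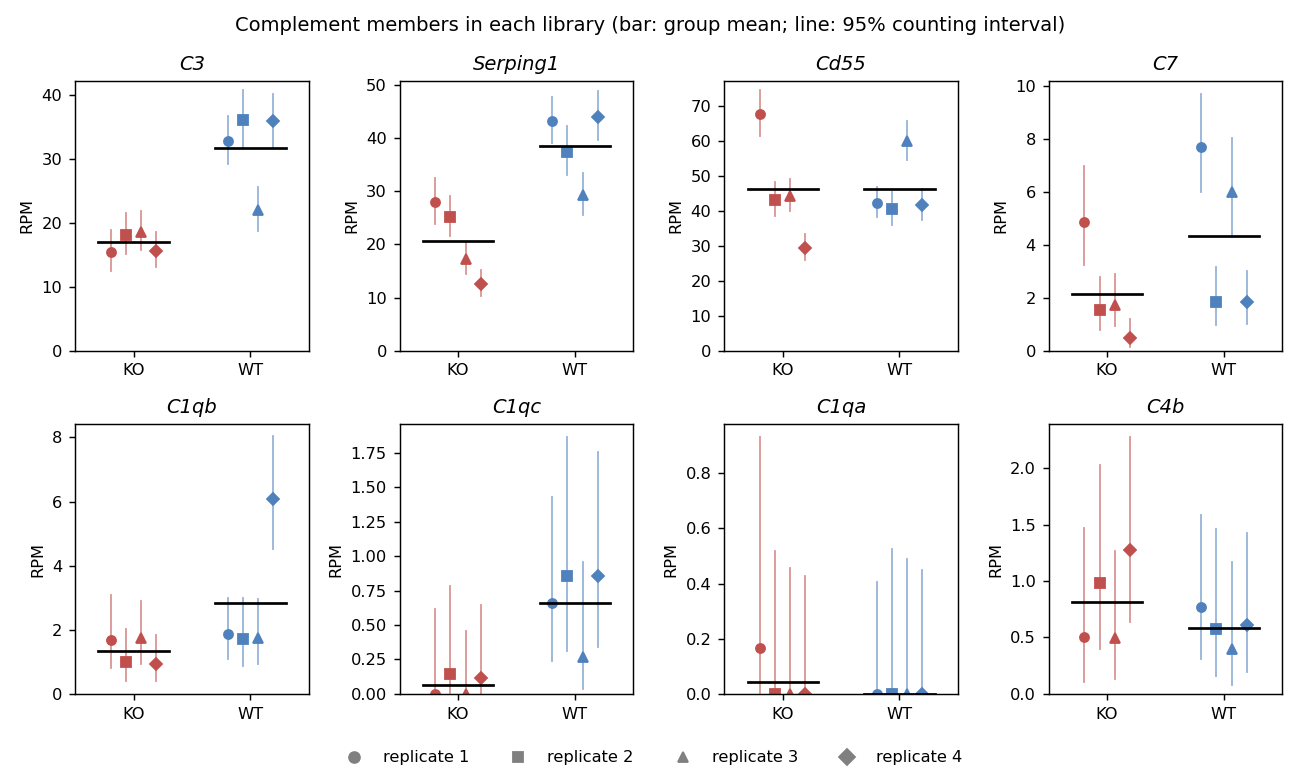
RPM of the 8 complement members (one panel each, linear axis from 0) in the 4 KO and 4 WT libraries. Points are libraries with symbols by replicate number, vertical lines are 95% exact Poisson counting intervals and horizontal bars are group means. C3 and Serping1 show no overlap between the groups, C1qb has 1 high WT library at 6.09 RPM, and C1qa, C1qc and C4b lie near the floor.

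C3, the component at which all pathways meet, stood at 15.4, 18.1, 18.6 and 15.6 RPM in KO1 to KO4, against 32.8, 36.0, 22.0 and 35.8 RPM in WT1 to WT4. The KO libraries lay close together, and WT3 was the WT library nearest to them. The mean was 16.9 ± 1.66 RPM in KO and 31.6 ± 6.62 RPM in WT (SD, n = 4 each). The fitted difference was -0.84 on the log2 scale (SE 0.17, 95% interval -1.21 to -0.48, limma with BH, unadjusted p = 0.00023, adjusted p = 0.125). DESeq2 called C3 lower in KO, with a log2 fold change of -0.85 and an adjusted p of 0.00749, whereas edgeR gave -0.85 and an adjusted p of 0.158. Without WT3, limma also called it, at -1.004 with an adjusted p of 0.0137. That fit called 133 of 11004 targets, 132 of them lower in KO, against 3 with all libraries. KO3 and WT3, the closest libraries of the groups, rested on 150 and 165 reads. Their exact Poisson intervals, 15.7 to 21.8 RPM for KO3 and 18.7 to 25.6 RPM for WT3, overlapped, so the gap between these 2 libraries was not resolved at this depth. Such intervals cover counting error only.

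The sequence around the start site of C3 is shown because C3 had the smallest p among the members. The window runs from 250 bases before to 50 bases after the start (RefSeq, GRCm38.p6, chr17:57228087-57228386, minus strand, written 5′ to 3′). Capitals mark a match to TTGCNNAA, a form of the motif bound by C/EBP factors, which are activators of acute-phase genes. This motif was added after the values were seen.
C3: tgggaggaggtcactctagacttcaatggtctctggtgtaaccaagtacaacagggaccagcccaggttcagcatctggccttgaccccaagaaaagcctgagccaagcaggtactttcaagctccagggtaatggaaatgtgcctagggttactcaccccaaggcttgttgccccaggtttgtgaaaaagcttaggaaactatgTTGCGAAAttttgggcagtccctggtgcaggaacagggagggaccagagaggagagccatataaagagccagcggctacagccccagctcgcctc
The match begins at position -45 from the start site. The motif, searched on both strands, was present in 10.8% of 32851 windows of the same length. The C3 window held no match to GAGGAA, the core of sites of the myeloid factor PU.1, to a form of the interferon response element, or to TTCNNNGAA, a STAT motif. Among the C/EBP genes, Cebpb averaged 142 ± 31.0 RPM in KO and 142 ± 36.1 RPM in WT (SD, n = 4 each). Cebpd averaged 6.38 ± 5.08 RPM in KO and 9.34 ± 6.49 RPM in WT, and its libraries overlapped. Cebpb had an adjusted p of 0.994 and Cebpd one of 0.865 (limma with BH).

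Serping1, the gene of the C1 inhibitor, stood at 27.9, 25.2, 17.2 and 12.5 RPM in KO1 to KO4, against 43.2, 37.4, 29.3 and 44.0 RPM in WT1 to WT4. The groups did not overlap, but the highest KO library and the lowest WT library were close. The mean was 20.7 ± 7.11 RPM in KO and 38.5 ± 6.79 RPM in WT (SD, n = 4 each). Serping1 had a log2 fold change of -0.91 (SE 0.22, 95% interval -1.39 to -0.42, limma with BH, unadjusted p = 0.00136, adjusted p = 0.138). DESeq2 called Serping1 lower in KO, at -0.87 with an adjusted p of 0.0192, and edgeR gave an adjusted p of 0.174. KO1, with 167 reads, had a counting interval of 23.8 to 32.5 RPM, and WT3, with 220 reads, had one of 25.5 to 33.4 RPM. GENCODE (GRCm38) places Serping1 at 84765387 to 84775444 of chromosome 2 and C3 at 57203970 to 57228136 of chromosome 17, both minus strand. Where in these genes the amplicons lie was not stated.

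Cd55, the membrane regulator of the set, did not share this pattern. It stood at 67.9, 43.2, 44.4 and 29.5 RPM in KO1 to KO4, against 42.3, 40.6, 60.0 and 41.8 RPM in WT1 to WT4. KO1 was the highest and KO4 the lowest of all 8 libraries, so the KO group spanned the WT group. The mean was 46.2 ± 15.9 RPM in KO and 46.2 ± 9.26 RPM in WT (SD, n = 4 each). The log2 fold change was -0.04, with a 95% interval from -0.50 to 0.42 (limma with BH, adjusted p = 0.985), and its sign turned under median-ratio (0.02) and TMM (0.02) scaling. The ratio of Cd55 to Serping1 within a library, which does not depend on scaling, was 2.43, 1.72, 2.58 and 2.36 in KO1 to KO4. It was 0.98, 1.08, 2.05 and 0.95 in WT1 to WT4. WT3 thus lay above KO2, and the other WT libraries lay below every KO library. The ratio of C3 to Serping1, by contrast, averaged 0.90 ± 0.32 in KO and 0.82 ± 0.098 in WT (SD, n = 4 each). Reads from Cd55 and its antisense gene Gm16083 cannot be told apart without a stated strand. The near copy Cd55b was at 0 reads in every KO library and at 0.286 RPM or below in WT.

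C7, which joins the terminal complex and anchors it in the membrane, stood at 4.85, 1.55, 1.73 and 0.463 RPM in KO1 to KO4, against 7.68, 1.86, 5.99 and 1.83 RPM in WT1 to WT4. WT1 and WT3 were high, and WT2 and WT4 lay within the range of the KO libraries. The mean was 2.15 ± 1.88 RPM in KO and 4.34 ± 2.96 RPM in WT (SD, n = 4 each). The log2 fold change was -0.76, with a 95% interval from -1.69 to 0.17 (limma with BH, adjusted p = 0.665). It ranged from -1.12 without KO1 to -0.45 without KO4, and was -0.47 without WT1. C7 rested on 4 to 29 reads in KO and 13 to 70 reads in WT libraries.

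The C1q chains were read at very low depth. Their genes lie side by side on chromosome 4, C1qb from 136880129 to 136886187, C1qc from 136889804 to 136893065 and C1qa from 136895917 to 136898803, all on the minus strand (GRCm38, GENCODE). C1qb stood at 1.67, 0.984, 1.73 and 0.926 RPM in KO1 to KO4, against 1.86, 1.71, 1.73 and 6.09 RPM in WT1 to WT4. WT4 alone, with 50 reads, was far above the rest, and the other WT libraries had 12 to 17 reads against 7 to 14 in KO. The mean was 1.33 ± 0.433 RPM in KO and 2.85 ± 2.16 RPM in WT (SD, n = 4 each). The log2 fold change of C1qb was -0.61, with a 95% interval from -1.26 to 0.04 (limma with BH, adjusted p = 0.586). Without WT4 it was -0.27 (adjusted p = 1), whereas leaving out any other single library gave -0.73 to -0.52.

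C1qc had 0, 1, 0 and 1 reads in KO1 to KO4, against 6, 6, 2 and 7 reads in WT1 to WT4. No KO library reached the lowest WT library, but a level of 3 reads, the floor of detection, equals 0.329 to 0.501 RPM, and WT3 lay below it. The share of 4.56% with KO below WT covers tested targets, and was not computed for targets this scarce. Summed over libraries, 2 KO reads against 21 WT reads gave a KO over WT ratio of 0.102 per read sequenced, with an exact 95% interval from 0.0116 to 0.416. That interval covers counting error alone and not the spread between mice. In a limma fit without the filter, the log2 fold change of C1qc was -0.63 (unadjusted p = 0.00234, BH adjusted p = 0.555). In that fit, 1329 of 23930 targets were lower and 274 higher in KO at an unadjusted p under 0.05. C1qa had 1 read, in KO1, over all 8 libraries, so the groups could not be compared for this chain.

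The windows around the starts of C1qb and C1qc are shown because these are the neighbouring C1q genes whose windows were in the promoter table. Coordinates are chr4:136886151-136886450 for C1qb and chr4:136892865-136893164 for C1qc (RefSeq, GRCm38.p6, both on the minus strand, 250 bases before to 50 after the start, 5′ to 3′). Capitals mark GAGGAA or its complement TTCCTC, the core of sites of PU.1, the factor encoded by Spi1.
C1qb: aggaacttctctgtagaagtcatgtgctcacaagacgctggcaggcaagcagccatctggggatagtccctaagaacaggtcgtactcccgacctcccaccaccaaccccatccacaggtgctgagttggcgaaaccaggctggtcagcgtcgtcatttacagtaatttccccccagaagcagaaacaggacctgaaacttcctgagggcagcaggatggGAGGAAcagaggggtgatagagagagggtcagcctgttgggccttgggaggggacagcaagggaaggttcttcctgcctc
C1qc: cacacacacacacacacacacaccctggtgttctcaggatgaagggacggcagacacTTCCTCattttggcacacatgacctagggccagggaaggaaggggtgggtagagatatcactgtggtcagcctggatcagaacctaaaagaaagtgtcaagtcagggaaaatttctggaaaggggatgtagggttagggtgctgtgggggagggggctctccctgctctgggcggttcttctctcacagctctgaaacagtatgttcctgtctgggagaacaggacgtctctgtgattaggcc
C1qb held the motif at position -30 from its start, and C1qc held it on the other strand at position -193. The motif was common, with a match in 28.3% of 32851 windows, so its presence in both describes the letters and no more. Neither window held the interferon response element, found in 3.44% of windows, TTCNNNGAA, found in 8.30%, or TTGCNNAA. Spi1 itself stood at 0.669, 0.422, 1.24 and 0.81 RPM in KO1 to KO4, against 2.96, 2.0, 0.532 and 4.14 RPM in WT1 to WT4. It was highest in WT4, the library with the most C1qb, and WT3 lay within the KO range (log2 fold change -0.82, limma with BH, unadjusted p = 0.0245, adjusted p = 0.408). Rela, which encodes the p65 subunit of NF-kappaB, averaged 31.5 ± 8.86 RPM in KO and 41.1 ± 6.71 RPM in WT (SD, n = 4 each; limma with BH, adjusted p = 0.530), with overlapping libraries.

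C4b, whose product is cleaved by C1s to form the classical convertase, had 3, 7, 4 and 11 reads in KO1 to KO4, against 7, 4, 3 and 5 reads in WT1 to WT4. The groups overlapped, and the KO over WT ratio of summed reads was 1.41 with an exact 95% interval from 0.743 to 2.70. C4b was the only scarce member with more KO than WT reads apart from the single read of C1qa. Its near-identical copy C4a lies close by on chromosome 17, and the sources do not say how shared reads were counted, so both are uncertain.

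The C1q chains were then set against the other members in each library. The mean log2(RPM + 1) of C1qa, C1qb and C1qc was 0.448 ± 0.083 in KO and 0.840 ± 0.277 in WT, and that of C3, C4b, C7, Serping1 and Cd55 was 3.27 ± 0.305 in KO and 3.74 ± 0.168 in WT (SD, n = 4 each). The difference between these means, C1q minus the others, was -2.82 ± 0.247 in KO and -2.90 ± 0.366 in WT. KO minus WT was thus 0.08, and the sign turned to -0.39 with a pseudocount of 0.1 RPM. C1qa and C1qc lay below the pseudocount of 1 RPM in every library, which compresses their part of the C1q mean, so nothing was read from this difference. In RPM, C1q chains stood at 1.58, 1.26, 2.10 and 1.75 per 100 of the other members in KO1 to KO4. They stood at 1.99, 2.21, 1.70 and 5.60 per 100 in WT1 to WT4. WT4 stood apart, and the other WT libraries lay within or just above the KO range. The C1q sums rested on 8 to 14 reads in KO and 15 to 57 reads in WT libraries, the 57 being WT4.

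Other genes of the pathway were examined from a list of 42, of which 38 were in the table and 14 entered the fit. In limma 0 of 14 passed after adjustment, 9 were below 0 and 5 above, and 59.2% of all tested targets were below 0. Their median log2 fold change was -0.19, beside -0.05 for all tested targets. At an unadjusted p under 0.05, 5 were lower and 0 higher in KO, against 8.56% and 0.663% of all tested targets. edgeR called 0 and had the same number, 5, at an unadjusted p under 0.05 and lower, and DESeq2 called 0, also with 5. In 2 of the 14, Vtn and Cfp, every KO library was below every WT library, and in 0 of them above, against 4.56% and 0.536% of all targets.

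**Figure D2:**
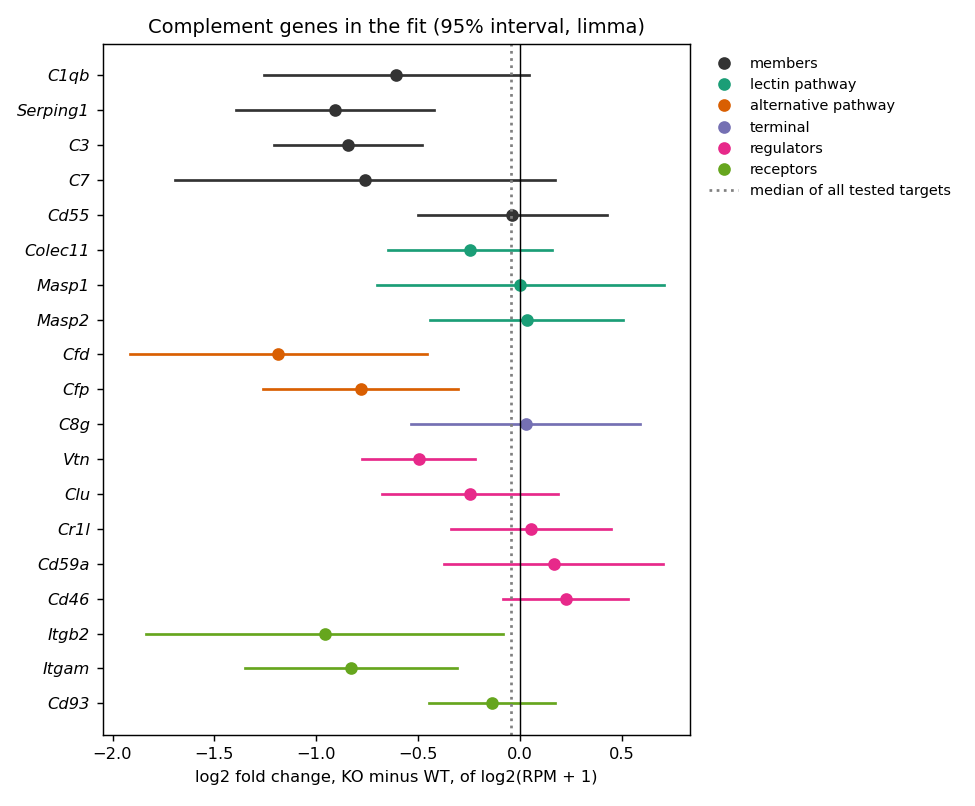
Log2 fold change, KO minus WT, of log2(RPM + 1) with 95% limma intervals for the 5 tested members and the 14 other tested complement genes, coloured by class. The vertical dotted line is the median of all tested targets at -0.05. Cfd at -1.19 lies farthest left, and Cd46 at 0.22 lies farthest right.

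Among the soluble regulators, Vtn encodes vitronectin, which binds the terminal complex. It stood at 32.6, 37.8, 38.7 and 35.1 RPM in KO1 to KO4, against 60.4, 45.6, 49.0 and 51.2 RPM in WT1 to WT4, so every KO library was below the lowest WT library. Vtn averaged 36.1 ± 2.79 RPM in KO and 51.5 ± 6.36 RPM in WT (SD, n = 4 each), a difference of -0.50 on the log2 scale (SE 0.13, limma, BH adjusted p = 0.157). Clu, the gene of clusterin, another binder of the terminal complex, averaged 93.0 ± 17.0 RPM in KO and 113 ± 33.6 RPM in WT, with overlapping libraries.

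The alternative pathway was represented by Cfd and Cfp. Cfd encodes factor D, the protease that cleaves factor B and is abundant in fat. It stood at 6.85, 12.2, 2.85 and 7.75 RPM in KO1 to KO4, against 21.4, 21.7, 9.18 and 17.2 RPM in WT1 to WT4, where WT3 lay below KO2. Its log2 fold change was -1.19 (limma with BH, adjusted p = 0.195). Cfp encodes properdin, which steadies the alternative convertase and is made by myeloid cells. It averaged 1.32 ± 0.448 RPM in KO and 3.02 ± 0.961 RPM in WT (SD, n = 4 each; limma with BH, adjusted p = 0.195).

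Among the receptors, Itgam and Itgb2, which encode the subunits of complement receptor 3 of myeloid cells, were the genes with the smallest p. Itgam stood at 1.17, 2.25, 1.49 and 1.39 RPM in KO1 to KO4, against 3.84, 4.14, 1.86 and 4.87 RPM in WT1 to WT4. WT3 again lay within the KO range, and limma called Itgam only without WT3 (-1.05, adjusted p = 0.0353, against -0.83 and 0.201 with all libraries). Over all targets the fit without WT3 called 133 of 11004, against 3 with all libraries. Itgb2 averaged 1.62 ± 0.959 RPM in KO and 4.60 ± 3.35 RPM in WT (SD, n = 4 each; limma with BH, adjusted p = 0.454). Reads of Itgam may include the overlapping gene Gm49368. The anaphylatoxin receptor genes C3ar1, C5ar1 and C5ar2 did not reach the filter of 1 RPM.

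Of the other membrane regulators on the list, Cd59a, Cr1l and Cd46 entered the fit. The scarce copies Cd55b and Cd59b did not, with 0 and 12 reads over the KO libraries, against 3 and 13 over the WT libraries. Cd59a, which blocks pore formation, averaged 80.1 ± 27.9 RPM in KO and 70.5 ± 20.6 RPM in WT (SD, n = 4 each). Cr1l, the rodent regulator Crry, averaged 38.9 ± 10.2 RPM in KO and 36.9 ± 5.84 RPM in WT. Cd46 averaged 12.3 ± 0.928 RPM in KO and 10.4 ± 1.02 RPM in WT. The log2 fold changes of Cd59a, Cr1l and Cd46 were 0.16, 0.05 and 0.22, with intervals from -0.37 to 0.70, -0.34 to 0.44 and -0.08 to 0.53 (limma). Libraries of the groups overlapped in all of them.

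In the lectin pathway, Colec11, a pattern recognition lectin, averaged 2.47 ± 0.563 RPM in KO and 3.09 ± 0.396 RPM in WT (SD, n = 4 each). Masp2, the gene of a protease that cleaves C4, averaged 1.09 ± 0.427 RPM in KO and 1.03 ± 0.329 RPM in WT. The log2 fold changes were -0.25 for Colec11 and 0.03 for Masp2 (limma with BH, adjusted p = 0.803 and 0.990). Of the terminal components outside the member set, C8g entered the fit (0.03, limma with BH, adjusted p = 0.994), and Hc and C8b were listed at 0 in every library. Tardbp overlaps Masp2 and Fbxw5 overlaps C8g on the opposite strand, so their reads may be shared. C2, the partner of C4 in the classical convertase, was below the filter. It was named after its values were seen, with 3, 4, 6 and 1 reads in KO1 to KO4, against 13, 6, 6 and 12 reads in WT1 to WT4.

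Markers of the cells that can supply complement differed between the libraries as well. Hepatocyte transcripts were at or near the floor, with 5 genes summing to at most 0.281 RPM in KO and 0.439 RPM in WT libraries, Apoh and Ttr the most abundant, and Apoa1 and Fgb at 0 throughout. The 12 macrophage markers summed to 31.6 to 42.3 RPM in KO and 55.0 to 229 RPM in WT, and of 11 tested, 0 were called, 10 were lower at an unadjusted p under 0.05 and the median log2 fold change was -1.01 (limma). edgeR called 0 of them, with 9 lower at an unadjusted p under 0.05, and DESeq2 called 2 lower, Lyz2 and Tyrobp. Over all tested targets these shares were 8.56% in limma and 7.34% in edgeR at an unadjusted p under 0.05 and lower, and 1.32% called lower in DESeq2. Lyz2, the most abundant of them, stood at 17.5, 16.6, 19.9 and 13.4 RPM in KO1 to KO4, against 56.3, 47.0, 27.5 and 121 RPM in WT1 to WT4. Cd68, the next, averaged 2.14 ± 0.635 RPM in KO and 11.9 ± 11.3 RPM in WT (SD, n = 4 each). The 11 fibroblast markers in the table, with Dcn and Gsn the most abundant, summed to 470 to 839 RPM in KO and 950 to 1186 RPM in WT. Of the 11, 0 were called, 7 were lower at an unadjusted p under 0.05, and the median was -0.72 (limma). edgeR called 0, with 6 lower at an unadjusted p under 0.05, and DESeq2 called 5 lower. The 8 endothelial markers, led by Pecam1 and Cdh5, summed to 407 to 475 RPM in KO and 443 to 508 RPM in WT, with a median of -0.03. Of these 8, 0 were called and 1 was lower at an unadjusted p under 0.05 (limma). In bulk muscle, fewer cells of a type and less RNA per cell cannot be told apart.

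Among markers of tissues next to the muscle, those of osteoclasts and bone varied the most. The 7 tendon markers, led by Fmod and Thbs4, summed to 33.3 to 57.2 RPM in KO and 67.3 to 220 RPM in WT, and the 8 osteoclast markers, led by Acp5 and Mmp9, to 1.27 to 8.02 RPM in KO and 11.8 to 571 RPM in WT. The 6 bone markers in the table, led by Col1a1 and Ibsp, summed to 145 to 368 RPM in KO and 397 to 5763 RPM in WT. Most of each bone sum was Col1a1, at 133 to 351 RPM in KO and 374 to 5566 RPM in WT. Phex alone of the bone markers averaged higher in KO, at 1.73 RPM against 0.850 RPM in WT. In limma, 7 of 7 tendon, 4 of 4 tested osteoclast and 3 of 4 tested bone markers were lower at an unadjusted p under 0.05. The share over all tested targets was 8.56%. Their median log2 fold changes were -1.23, -2.76 and -1.79, and 0 were called. DESeq2 called 2, 3 and 2 of them lower, against 1.32% of all targets. The highest sums of all 3 lists were in WT4 and the lowest WT sums in WT3. The macrophage sums, at 110, 88.6, 55.0 and 229 RPM in WT1 to WT4, ranked these libraries as the osteoclast sums did. Whether the macrophage and osteoclast lists read the same cells was not tested. The 6 adipocyte markers, led by Fabp4 and Lipe, summed to 213 to 265 RPM in KO and 246 to 313 RPM in WT. Fabp4 and Lipe made up nearly all of this sum. Lipe alone averaged higher in KO, at 43.1 RPM against 40.2 RPM in WT. Plin1, below the filter, averaged 0.368 RPM in KO and 1.36 RPM in WT, and Cidec 2.59 RPM in KO and 4.30 RPM in WT. The 6 neutrophil markers, led by S100a9 and S100a8, summed to at most 2.08 RPM in KO and 3.84 RPM in WT. The part of any of these in the complement values was not tested. Without WT1 and WT4, which held the most osteoclast and bone transcripts, C3 had a log2 fold change of -0.71 (unadjusted p = 0.00586) and Serping1 one of -0.72 (unadjusted p = 0.0242), neither past the adjusted threshold. C1qb then stood at -0.24 (unadjusted p = 0.364), all in limma. WT2 and WT3, the WT libraries kept, still exceeded every KO library in all 3 sums. They held 29.1 and 11.8 RPM of osteoclast markers against at most 8.02 RPM in KO. For bone markers it was 913 and 397 against at most 368 RPM, and for tendon markers 109 and 67.3 against at most 57.2 RPM. For WT3 the excess in the bone sum rested on Col1a1, at 374 RPM against at most 351 RPM in KO. Ibsp stood at 2.66 RPM in WT3, below KO2 at 5.63 and KO3 at 3.09 RPM. In WT2 it stood at 15.1 RPM, above every KO library. This fit therefore cannot show what part these tissues had.

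**Figure D3:**
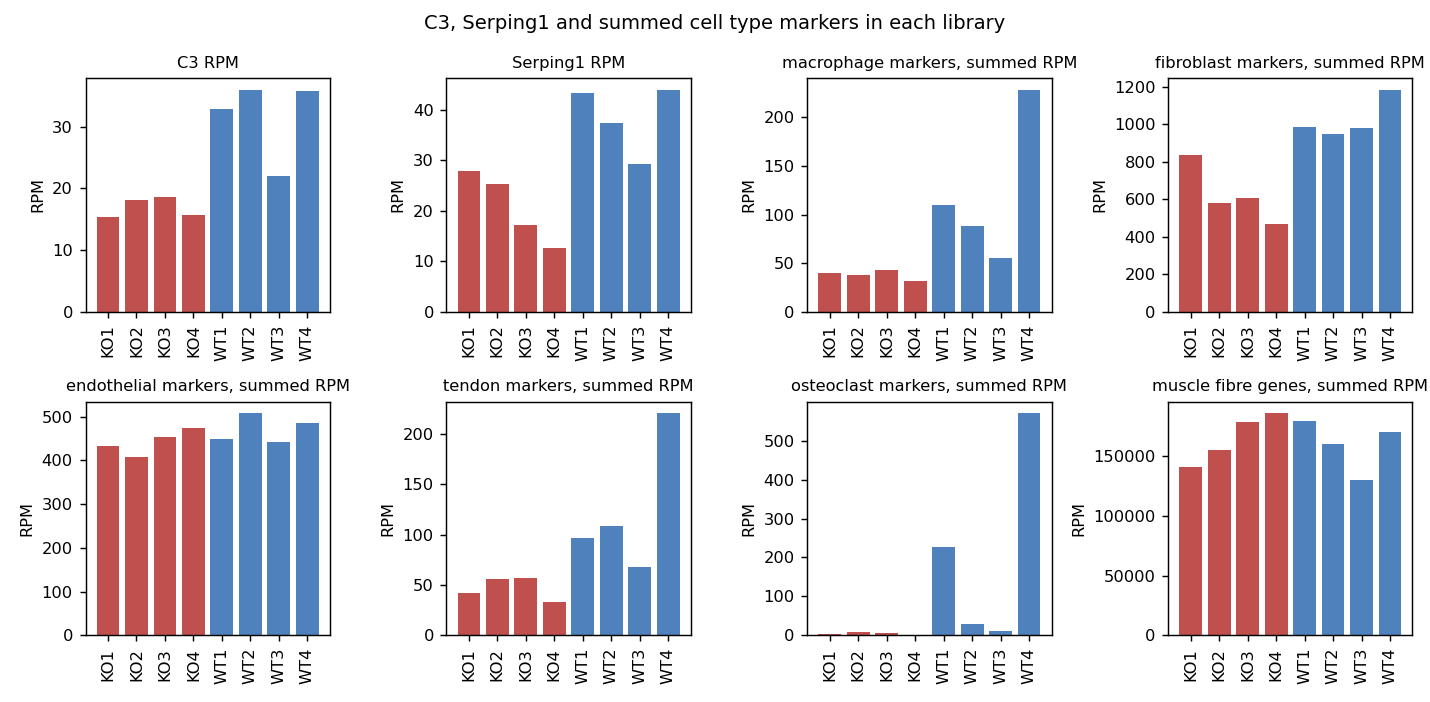
RPM of C3 and Serping1 and summed RPM of 6 marker lists (linear axes from 0) as bars for KO1 to KO4 (left) and WT1 to WT4 (right). WT3 is the lowest WT library in every panel except that of the fibroblast sum, where WT2 is lowest. WT4 has the highest macrophage sum at 229 RPM, and endothelial sums run from 407 to 508 RPM over all libraries.

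The tested targets that most resembled the members over the 8 libraries were picked by Pearson's r of log2(RPM + 1), as a description. These values share libraries and group differences, and picking the highest of 11004 targets makes high values certain. For the mean of the C1q chains they were Fkbp7, Spon1, Emp2, Ndnf and Col6a3, with r from 0.984 to 0.996. Of these, Spon1, which encodes a secreted matrix protein, averaged 11.7 RPM in KO and 26.7 RPM in WT, and Col6a3, a collagen VI chain of connective tissue, averaged 10.7 RPM in KO and 31.2 RPM in WT. For the mean of the other members they were Arsk, Necab1, Papola, Cxcl14 and Atat1, with r from 0.944 to 0.985. Of these, Cxcl14, a chemokine gene, averaged 18.6 RPM in KO and 32.3 RPM in WT. None of the 10 passed the limma threshold.

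The dependence of the 5 tested members on the choice of scaling, filter, test and libraries was followed for each member. Over 22 alternatives the log2 fold change stayed between -1.004 and -0.71 for C3 and between -1.07 and -0.70 for Serping1. Over 21 alternatives it stayed below 0 for C1qb, between -1.07 and -0.24, and for C7, between -1.12 and -0.36. Cd55 took either sign, from -0.24 to 0.15. Changing only the filter, the intensity trend, the threshold or a block on replicate number leaves the log2 fold change as it was. Those alternatives add nothing to these ranges.

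**Figure D4:**
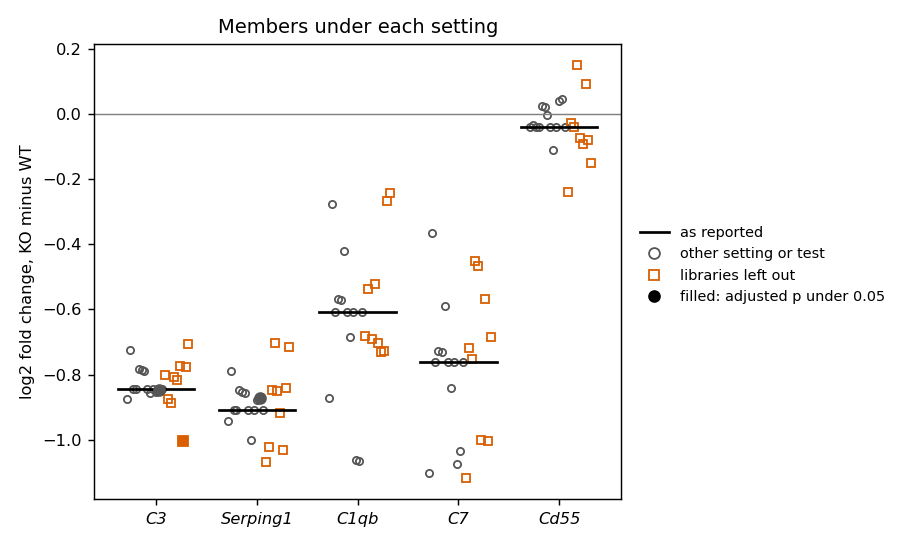
Log2 fold change, KO minus WT, of the 5 tested members under each setting. Black bars are the values as reported, circles are other settings or tests and squares are fits with libraries left out. Filled symbols have an adjusted p under 0.05, which are the DESeq2 values of C3 and Serping1 and the value of C3 without WT3.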

How the data were processed

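RNA of TA muscle was isolated with TriZol and read with the Ion AmpliSeq Transcriptome Mouse panel, per the labels' protocols. The authors deposited 1 table of RPM values, 1 column per library, and Transcriptome Analysis Console is listed, per the submitters' processing notes. The aligner, genome build and filters were not stated. Columns were matched to samples by barcode. Low values were whole multiples of 1 read, so reads were recovered by division, with 100% of values less than 0.1 from a whole number. Libraries of a group differed by more than counting noise in every pair (chi-square over degrees of freedom 12.3 to 34.4).

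The main test was limma 3.58.1 on log2(RPM + 1), over the 11004 targets averaging 1 RPM or more (R 4.3.3, intensity trend, two-sided, Benjamini-Hochberg, BH, over all targets). The labels speak of separate mice, so n counts mice. Alternatives were edgeR 4.0.16 and DESeq2 1.42.0 on recovered reads, other pseudocounts, filters, scalings, weights, a replicate block and libraries left out. The procedure was tested on simulated reads. Named genes were all members, Sdhc, the 2 smallest p per complement class, the 2 most abundant per marker list and the 5 targets most like the members. Genes outside that rule were chosen after their values were seen. These were Gpx3, Tgfb3, Cd59a, Clu, Cr1l, C2, Cebpb, Cebpd, Tyrobp, Phex, Plin1, Cidec and those named as near 0. The members and lists were chosen with earlier results of these data known. A gene of the complement list is not reported here and is left out of the list's counts. Promoter windows from RefSeq (GRCm38.p6) matched 6 of the 9 members.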

Additional observations from a re-analysis of the deposited data

Results flagged for a closer look

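Within each group of 4 libraries, the gap between the highest or lowest library and its neighbour was compared with the range of the group, for the members, Sdhc, the tested complement genes and the C1q ratio. Of 48 such groups, 4 exceeded Dixon's critical value, and chance flags about 1 in 20. C1qb in WT4, at 6.09 RPM, stood far above the other WT libraries (gap over range 0.966). C1q chains per 100 of the other members in WT4, at 5.60, rest on the same reads (0.869). Cd55 in WT3, at 60.0 RPM, stood above the other WT libraries (0.909), while KO1 reached 67.9 RPM. C1qa in KO1, at 0.167 RPM, was a single read beside 0 in the other KO libraries, below the floor of detection.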

How the results depend on the processing

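The count of members called was 0 of 5 in limma and edgeR, 2 in DESeq2 and 0 to 1 when each library was left out in turn, the 1 being C3 without WT3. For the other complement genes it was 0 in limma, edgeR and DESeq2, and 0 to 1 with a library left out, the 1 being Itgam without WT3. Over all targets it was 3, against 6 without a filter, 149 in DESeq2, 1 under median-ratio, TMM or quantile scaling, without the trend, in edgeR and without WT1 and WT4 together, and 1 to 133 with a library left out, the 133 without WT3. Sdhc was called under every alternative run, from -4.96 to -4.42 with a library left out. The sign of Cd55 turned to 0.023 with median-ratio, 0.020 with TMM, 0.039 in edgeR, 0.045 in DESeq2, 0.15 without KO4 and 0.09 without WT3 (range -0.24 to 0.15). The difference between C1q chains and other members turned from 0.08 to -0.39 with a pseudocount of 0.1 RPM. The cause of these shifts was not tested. The deviations of same-numbered libraries correlated at 0.0022, 0.257, 0.125 and 0.105. As not every pair exceeded 0.1 and the labels name no shared litter or day for a number, the numbers were not taken as pairs. Of the 4 libraries in each group, 1 correlated best with its own number. With the replicate number as a block, 1 target was called, Sdhc, at -4.68, and 0 members. C7 then had an unadjusted p of 0.00715 and an adjusted p of 0.235. Depth limits C1qa, C1qc and C4b, with 0 to 11 reads per library.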
